A study of Mus musculus with 16 samples.

Results

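The comparison described here set trained against untrained gastrocnemius of mice that lack interleukin-13, with 4 libraries in each group, 8 of the 16 libraries of the series. All genes with at least 1 RPKM (reads scaled by the length of the gene and by the total of the library) in at least 4 of the 16 libraries were compared, which were 10171 of the 23440 genes listed. The mice were male C57Bl6/J animals aged 20 weeks, and each library came from a separate mouse. The knockout (KO) groups carried Il13-/-, and the trained KO mice had run on a treadmill every day over 5 weeks while the untrained KO mice had not. The other 8 libraries came from wild-type (WT) mice of the same sex, strain and age, untrained or trained in the same way, and entered the fit as 2 further groups of 4. No promoter or cell type is named for the knockout, and the labels give only Il13-/-.

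Interleukin-13 is a type 2 cytokine, made mainly by T helper cells and innate lymphoid cells, that signals through a receptor of Il4ra and Il13ra1 to the transcription factors STAT6 and STAT3. Repeated endurance running is known to raise the mitochondrial content and capillary supply of muscle and to move fibres towards a slower, more oxidative type. The gastrocnemius is a calf muscle made mostly of fast fibres, with vessels, nerve, connective tissue and fat between them, and the values below come from all of these cells together. For any cell type, fewer cells and less RNA per cell cannot be told apart in such samples.

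Il13 (chr11:53631323-53634702, mm10) could not serve as a check of the genotype. It had 0 reads in all 8 WT libraries, 2, 1, 0 and 0 reads in the untrained KO libraries and 0, 1, 0 and 1 reads in the trained KO libraries. The limit that 0 reads leave, taken as 3 reads, equalled 0.124 to 0.153 RPKM (counting error only). Totals recovered for each library lay between 16307025 and 20074677 reads, with Myh4, a myosin heavy chain of fast fibres, as the leading gene of all 16. Markers of the labelled muscle were present throughout: the 19 fast fibre genes summed to between 98758 and 112077 RPKM in the 8 KO libraries.

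Training in KO muscle gave no gene that passed the test. With limma, 0 of 10171 genes (0.0%) had an adjusted p under 0.05, 1398 (13.7%) had an unadjusted p under 0.05, and limma's voom on the recovered reads also called 0 genes, with 1538 at an unadjusted p under 0.05. Of the 1398 genes, 493 (4.85%) were higher and 905 (8.9%) lower in trained muscle. For 959 genes (9.43%) the range of the trained mice lay apart from that of the untrained mice, with 407 (4.0%) higher and 552 (5.43%) lower after training. The median log2 difference of all genes was -0.06, with 35.1% of genes above 0 and 64.9% below. Quantile normalization, which gives all libraries the same distribution, turned this balance and put 923 genes higher and 630 lower at an unadjusted p under 0.05. The p-values set a difference against the spread between mice within groups, which the fit pools over all 4 groups, WT included.

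The count of 0 depended on 1 library outside the comparison. Without WT trained 1, whose log2 values lay farthest from their group mean (SD 0.229), the same KO values gave 106 genes at an adjusted p under 0.05 (1.04%), 48 higher (0.472%) and 58 lower (0.57%). All 106 had trained and untrained KO values that did not overlap, with sizes from 0.19 to 1.04 on the log2 scale and a median of 0.35. A fit that weights each library by its spread, in which WT trained 1 had a weight of 0.309, called 97 genes, 41 higher and 56 lower, and 76 genes were called in both settings. A fit on the 8 KO libraries alone called 0 genes, with a smallest adjusted p of 0.067. Differences of single genes are therefore given below as values with their SE and their limma adjusted p in the fit of all 16 libraries, and none of them passed there. Exons overlap a gene on the other strand for Ipo11, Ranbp1, Zrsr1, Sf3a2, Zfp943, Dnm1l, Ndufb6, Slc2a1, Gpi1, Gys1, Hspb6, Prkcdbp, Dlgap4, Cnp, Lox, Stat3, Il4ra, Stat6, Il34 and Eng, whose levels are uncertain because the sources used here do not say whether counting used strand.

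**Figure D1:**
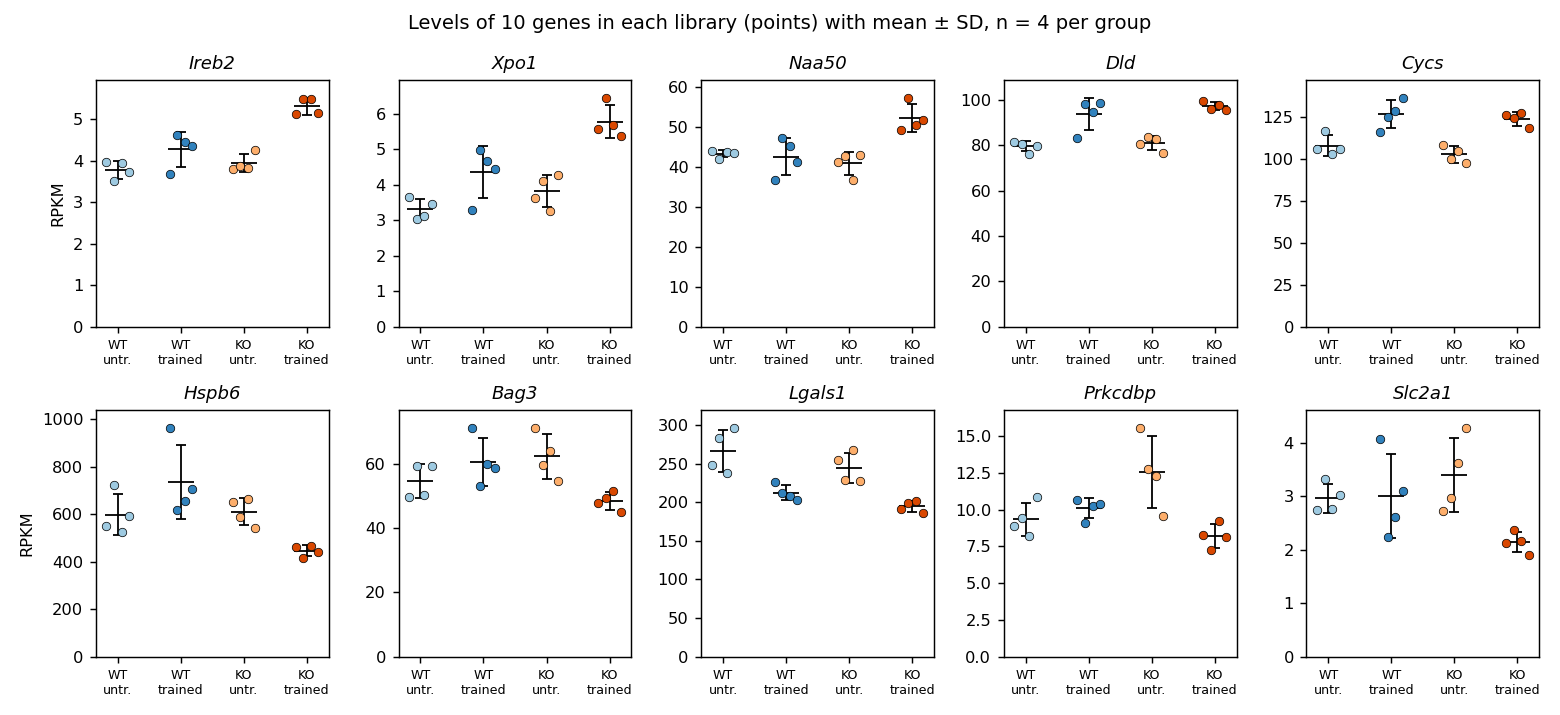
RPKM of 10 genes in each of the 16 libraries (points), with the group mean and SD (black lines, n = 4 per group). The trained KO points lie apart from the untrained KO points in all 10 panels, above them for Ireb2, Xpo1, Naa50, Dld and Cycs and below them for Hspb6, Bag3, Lgals1, Prkcdbp and Slc2a1. Most of these genes were picked by a rule that takes only groups without overlap, which 9.43% of all genes had.

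The direction of the difference ran with the base composition of the transcripts. Genes were split into 5 groups of equal size by the share of G and C in the GENCODE M21 transcript nearest to the solved gene length, which was known for 10121 of the tested genes. The median log2 difference between trained and untrained KO muscle was 0.10 in the GC group with the least G and C (32.9% to 44.8%) and -0.15 in the group with the most (56.2% to 71.6%). Trained values lay wholly above untrained values for 343 of 2025 genes in the lowest group and 4 of 2024 in the highest, and wholly below for 10 and 226. Across genes, which are not independent replicates, Spearman's rho between the KO difference and GC was -0.57, against -0.24 in WT and 0.18 between the KO difference and gene length. The coding part and the 3' untranslated part of the transcripts gave values of -0.50 (9990 genes) and -0.48 (9423 genes). Among the 106 genes called without WT trained 1, median GC was 40.4% for those higher and 56.3% for those lower. Over all tested genes it was 50.7%.

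Stretches of 100 coding bases are shown for 4 genes with leading differences in KO, of which Ireb2 and Xpo1 had higher and Dlgap4 and Prkcdbp lower values in trained muscle. Each was read from the middle of the longest coding exon in GENCODE M21 (mm10), 5′ to 3′ along the gene, with G and C in capitals. The stretches lie at chr9:54883957-54884056, plus strand for Ireb2, chr11:23282578-23282677, plus strand for Xpo1, chr2:156701127-156701226, plus strand for Dlgap4 and chr7:105480972-105481071, minus strand for Prkcdbp.
Ireb2: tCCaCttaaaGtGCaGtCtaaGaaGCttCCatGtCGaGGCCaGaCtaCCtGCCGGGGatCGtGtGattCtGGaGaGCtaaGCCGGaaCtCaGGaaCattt
Xpo1: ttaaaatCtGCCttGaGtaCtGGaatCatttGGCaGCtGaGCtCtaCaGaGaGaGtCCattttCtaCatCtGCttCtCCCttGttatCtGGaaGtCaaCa
Dlgap4: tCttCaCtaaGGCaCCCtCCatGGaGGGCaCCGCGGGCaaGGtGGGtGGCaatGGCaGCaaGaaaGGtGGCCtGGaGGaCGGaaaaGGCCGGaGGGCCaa
Prkcdbp: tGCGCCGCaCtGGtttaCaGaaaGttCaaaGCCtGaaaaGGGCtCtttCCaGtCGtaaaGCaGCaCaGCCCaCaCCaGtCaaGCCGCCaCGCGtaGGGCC
G and C made up 51, 42, 63 and 57 of these 100 bases. A single window can depart from its transcript, and that of Ireb2 lay near the median transcript of all tested genes (50.7%). Over the whole transcript, untranslated parts included, the shares were 38.98% for Ireb2, 38.95% for Xpo1, 59.4% for Dlgap4 and 56.4% for Prkcdbp.

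The same contrast was measured as 1 number per library, the mean log2(RPKM + 0.1) of the lowest GC group minus that of the highest. It was -0.533, -0.453, -0.567 and -0.349 in the untrained KO libraries and -0.275, -0.138, -0.231 and -0.238 in the trained KO libraries, so the groups did not overlap. The difference was 0.255 (two-sided exact permutation p = 0.0286, the smallest that 4 against 4 allow). In WT the values were -0.387, -0.641, -0.494 and -0.514 untrained and -0.721, -0.264, -0.339 and -0.329 trained, which overlapped (exact permutation p = 0.429). The overlap came from WT trained 1 alone: the other 3 trained WT values all lay above the untrained WT values. Over the 16 libraries this number ran with the share of reads that fell in listed genes (Pearson's r = -0.906, Spearman's rho = -0.915, each with a permutation p of 1e-05, the smallest that 100000 draws can give, and an adjusted p of 3e-05 over 3 relations). Without the 2 libraries farthest from the median share r was -0.874, and within genotypes r was -0.917 in KO (exact permutation p = 0.00263) and -0.889 in WT (exact permutation p = 0.00248), each with an adjusted p of 0.00263. Each of these relations mixes trained and untrained libraries, and none within a training group was tested. The share itself averaged 79.9% ± 1.95 (SD, n = 4) in untrained and 76.7% ± 1.27 in trained KO muscle (two-sided exact permutation p = 0.0857). No RNA quality value or sequencing batch is given for these libraries, and their part in the GC difference was not tested.

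**Figure D2:**
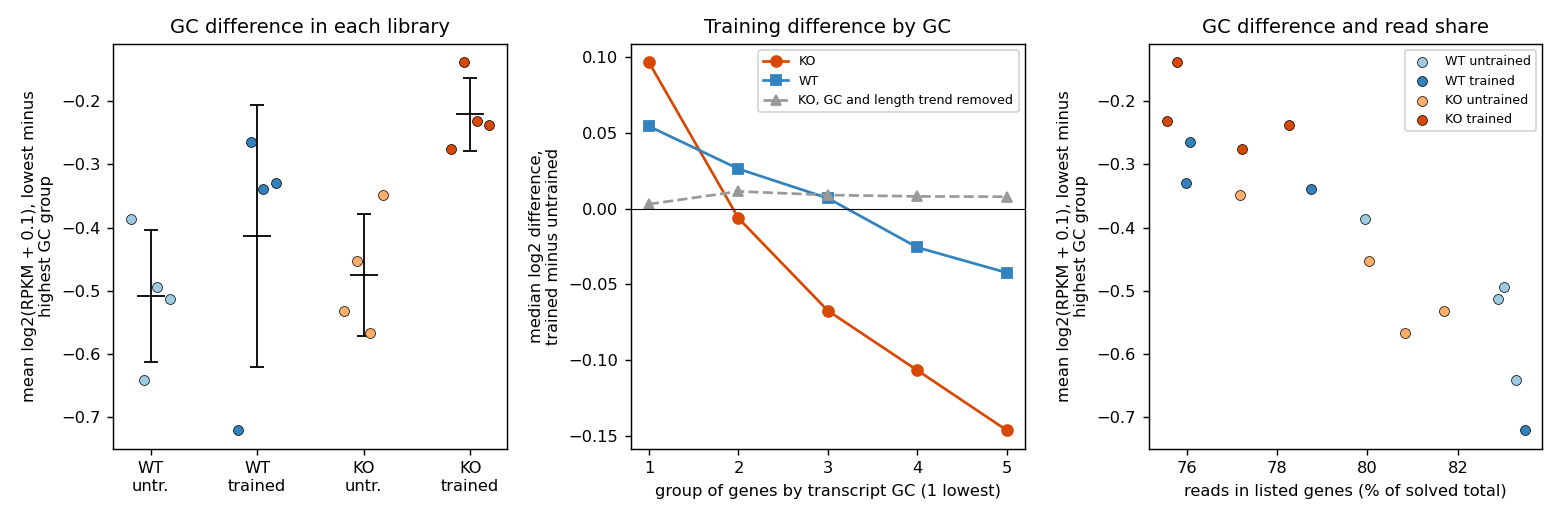
Left, the mean log2(RPKM + 0.1) of the lowest GC group of genes minus that of the highest, per library (points) with group mean and SD (n = 4). Middle, the median log2 difference with training in each GC group, from 0.10 to -0.15 in KO, shallower in WT and near 0 in KO once the trend on GC and length is removed from each library. Right, the per-library value against the percent of the solved read total that fell in listed genes, with r = -0.906 over 16 libraries.

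Because the differences ran with GC and gene length, the gene lists below, and genes whose value it moves by over 1.5 times, are also given after a smooth trend of the log2 values on both was removed from every library. That correction left 0 genes at an adjusted p under 0.05 (0.0%) and 950 (9.34%) at an unadjusted p under 0.05. Of those, 558 (5.49%) were higher and 392 (3.85%) lower in trained KO muscle, and 52.9% of all genes lay above 0. Of the 106 genes called without WT trained 1, 105 kept their direction under the correction and 83 had an unadjusted p under 0.05.

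Iron handling genes were split between both directions, with Ireb2 among the genes with higher values and the smallest p. Ireb2 encodes iron regulatory protein 2, which binds iron-responsive elements in messenger RNA when cell iron is low and thereby protects the transferrin receptor message. Ireb2 (chr9:54863755-54912534, plus strand) measured 3.80, 3.87, 3.83 and 4.26 RPKM in untrained and 5.11, 5.48, 5.49 and 5.15 RPKM in trained KO muscle. All 4 trained values lay above all 4 untrained values (log2 difference 0.42, SE 0.08, adjusted p = 0.139), and after the correction the difference was 0.23 (adjusted p = 0.185). The transferrin receptor Tfrc, which takes iron into the cell, measured 21.5, 26.8, 17.8 and 19.6 RPKM in untrained and 44.9, 41.2, 33.1 and 20.3 RPKM in trained KO muscle. Trained libraries 1, 2 and 3 stood above every untrained library while trained library 4 lay within the untrained range (log2 difference 0.66, SE 0.22, adjusted p = 0.258). Slc25a28, the mitochondrial iron importer mitoferrin 2, lay on the other side, at 16.9 to 20.2 RPKM in untrained and 12.4 to 15.6 RPKM in trained KO muscle (log2 -0.36, adjusted p = 0.266; -0.19 after the correction). Of the 27 iron and heme genes tested, 12 were above 0. At an unadjusted p under 0.05, 3 were higher and 6 lower, against 4.85% and 8.9% over all genes. With the correction 4 were higher and 1 lower, against 5.49% and 3.85%.

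Xpo1 is exportin 1, the carrier that takes proteins with a leucine-rich signal and some RNAs out of the nucleus. Xpo1 (chr11:23256041-23297597, plus strand) measured 3.62, 4.09, 3.27 and 4.28 RPKM in untrained and 5.58, 6.44, 5.67 and 5.37 RPKM in trained KO muscle. The groups did not overlap (log2 difference 0.59, SE 0.12, adjusted p = 0.139), and the corrected difference was 0.40 (adjusted p = 0.145). Ipo11, an import receptor, was at 2.97 to 3.42 RPKM in untrained and 3.77 to 4.42 RPKM in trained KO muscle (log2 0.31, adjusted p = 0.159). Ranbp1, which helps to release cargo from exporters, was at 11.1 to 14.3 RPKM in untrained and 9.04 to 11.5 RPKM in trained KO muscle with overlapping groups (log2 -0.32, adjusted p = 0.184). Among 40 nuclear import and export genes, 7 were higher and 3 lower at an unadjusted p under 0.05, against 4.85% and 8.9% over all genes. Wholly higher were 6 and wholly lower 3, against 4.0% and 5.43%. After the correction the counts at an unadjusted p under 0.05 were 3 higher and 2 lower, against 5.49% and 3.85% over all genes.

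Genes that make, splice and translate messenger RNA were split between both directions. Polr2a, the largest subunit of RNA polymerase II, measured 12.9, 15.5, 13.3 and 13.8 RPKM in untrained and 10.5, 11.4, 11.4 and 10.03 RPKM in trained KO muscle. Every trained value lay below every untrained value (log2 difference -0.35, SE 0.08, adjusted p = 0.139). Zrsr1, a relative of the splicing factor that recognises the 3' splice site, measured 105, 91.0, 96.0 and 89.0 RPKM in untrained and 75.6, 65.6, 62.5 and 71.6 RPKM in trained KO muscle, again without overlap (log2 difference -0.47, SE 0.09, adjusted p = 0.139). The overlapping gene on the other strand is Commd1. The correction left Zrsr1 at -0.47 (adjusted p = 0.0831). Sf3a2, a subunit of the U2 splicing particle, was at 15.9 to 17.5 RPKM in untrained and 12.3 to 13.7 RPKM in trained KO muscle (log2 difference -0.33, SE 0.08, adjusted p = 0.158; -0.15 after the correction). Hnrnpa1, an RNA-binding protein that influences splice site choice, was at 9.02 to 12.02 RPKM in untrained and 14.6 to 18.1 RPKM in trained KO muscle (log2 difference 0.70, SE 0.16, adjusted p = 0.139); its many processed copies in the genome make this level uncertain. Of 57 splicing factors, 5 were higher and 8 lower at an unadjusted p under 0.05, with a median of -0.03. All tested genes had 4.85% higher and 8.9% lower. After the correction 3 were higher and 6 lower, with a median of 0.01, against 5.49% and 3.85% over all genes.

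The N-terminal acetylation genes Naa50 and Naa15 lay higher in trained KO muscle. Naa50, a catalytic subunit that acetylates protein N-termini, measured 41.3, 42.6, 36.7 and 43.1 RPKM in untrained and 49.3, 57.2, 50.6 and 51.8 RPKM in trained KO muscle. Its trained values all exceeded its untrained values (log2 difference 0.35, SE 0.07, adjusted p = 0.139), and the correction brought the difference to 0.12 (adjusted p = 0.496). Naa15 anchors an N-terminal acetyltransferase complex to ribosomes. It was at 6.29 to 7.84 RPKM in untrained and 8.95 to 9.52 RPKM in trained KO muscle, also without overlap (log2 difference 0.35, SE 0.09, adjusted p = 0.18). After the correction its difference was 0.20. Eif4ebp1, which holds back cap-dependent translation when it is not phosphorylated, measured 43.6, 39.8, 40.5 and 40.01 RPKM in untrained and 30.6, 30.04, 32.4 and 34.8 RPKM in trained KO muscle and lay wholly lower (log2 difference -0.36, SE 0.08, adjusted p = 0.139; -0.23 after the correction). In WT the log2 difference was also -0.36, again with no overlap. The list of 45 N-terminal acetylation and translation initiation genes had 6 higher and 5 lower at an unadjusted p under 0.05 (4.85% and 8.9% over all genes). Wholly higher were 7 and wholly lower 5 (4.0% and 5.43% over all genes). After the correction 6 were higher and 1 lower, against 5.49% and 3.85%.

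Zinc finger genes named Zfp and a number are mostly repressive DNA-binding proteins, a family chosen as a group after values were seen. Of 211, 37 were higher and 17 lower at an unadjusted p under 0.05, against 4.85% and 8.9% over all genes. With the GC and length trend removed the counts were 17 and 4, against 5.49% and 3.85%. The family's median GC was 47.6% against 50.7% over all genes. Zfp120 measured 1.48, 1.45, 1.42 and 1.54 RPKM in untrained and 2.44, 2.35, 2.32 and 2.44 RPKM in trained KO muscle. These groups were tight and apart (log2 difference 0.66, SE 0.14, adjusted p = 0.139). Zfp943, at 2.22 to 2.64 RPKM in untrained and 3.75 to 5.22 RPKM in trained KO muscle, had the larger size (log2 difference 0.80, SE 0.22, adjusted p = 0.184). Klf5, a Krüppel-like transcription factor of proliferating and smooth muscle cells, measured 1.55, 1.15, 1.69 and 1.01 RPKM in untrained and 0.812, 0.562, 0.930 and 0.774 RPKM in trained KO muscle, lower without overlap (log2 difference -0.73, SE 0.18, adjusted p = 0.158). Its difference stayed at -0.73 after the correction, and its counts were low, at 18 to 31 reads in the trained libraries.

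Mitochondrial energy genes had small differences, and the sign of the respiratory chain medians depended on the correction. As deposited, the medians were 0.05 for 29 genes of fatty acid oxidation, 0.02 for 26 genes of pyruvate oxidation and the citric acid cycle, -0.04 for 37 complex I subunits and -0.01 for 37 subunits of complexes III, IV and V. In WT the medians were 0.24 for fatty acid oxidation, 0.14 for pyruvate oxidation and the citric acid cycle, 0.04 for complex I and 0.09 for complexes III, IV and V. With the GC and length trend removed the KO medians of the 4 lists were 0.11, 0.06, 0.09 and 0.11. Above 0 lay 29, 23, 34 and 31 members, against 52.9% of all genes. At an unadjusted p under 0.05, fatty acid oxidation went from 0 higher and 0 lower to 8 and 0, and the citric acid cycle list from 3 and 0 to 6 and 0. Complex I went from 1 and 1 to 14 and 2, and complexes III, IV and V from 4 and 1 to 20 and 0. Over all genes the corrected shares were 5.49% higher and 3.85% lower. The 80 cytosolic ribosomal protein genes tested, a family chosen after values were seen, went from 1 higher and 3 lower to 22 and 1. Of these genes 62 lay above 0 after the correction, so higher corrected values were not particular to the mitochondrial lists. Correction for GC alone, chosen after seeing the data, gave 14 and 0 for complexes III, IV and V, and quantile normalization 13 and 3. Leaving out each KO library in turn gave between 12 and 24 higher and 0 lower genes of that list, with 12 without KO trained 1 and 13 without KO untrained 1. Complex I ranged from 9 (without KO trained 1) to 17 higher genes. Fatty acid oxidation had 5 without KO trained 1, 4 without KO untrained 1 and 12 without KO untrained 3. The 13 protein genes of the mitochondrial genome were not analysed here.

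Dld, the dihydrolipoamide dehydrogenase shared by the pyruvate and other 2-oxoacid dehydrogenase complexes, measured 80.7, 83.6, 82.9 and 76.4 RPKM in untrained and 99.3, 95.9, 97.8 and 95.5 RPKM in trained KO muscle. Trained values all lay higher (log2 difference 0.26, SE 0.06, adjusted p = 0.139; 0.15 after the correction), and the WT difference was 0.23. Cycs, cytochrome c, which carries electrons from complex III to complex IV, measured 108, 99.9, 105 and 97.3 RPKM in untrained and 126, 124, 127 and 118.04 RPKM in trained KO muscle, again without overlap (log2 difference 0.27, SE 0.06, adjusted p = 0.139; 0.15 after the correction; WT 0.23). For both genes the difference between the genotypes' responses was small, 0.03, SE 0.08, adjusted p = 0.931 for Dld and 0.04, SE 0.08, adjusted p = 0.906 for Cycs.

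Within the ATP synthase and complex I, Atp5k, the small subunit e that helps synthase dimers form, measured 445, 417, 476 and 377 RPKM in untrained and 534, 480.4, 507 and 488 RPKM in trained KO muscle. It lay wholly higher (log2 difference 0.23, SE 0.07, adjusted p = 0.21), and its difference was 0.47 after the correction (adjusted p = 0.0771). Ndufb6, an accessory subunit of complex I, was at 97.6 to 116.6 RPKM in untrained and 120.8 to 133 RPKM in trained KO muscle (log2 0.27; 0.41 after the correction, adjusted p = 0.0831). Ndufa12, another accessory subunit, was wholly lower, at 274 to 317 RPKM in untrained and 232 to 257 RPKM in trained KO muscle (log2 -0.27; -0.14 after the correction). Chchd2, a mitochondrial regulator of respiration that was named after its values were seen, had the smallest adjusted p under the correction (0.0544), with a corrected log2 difference of 0.22 against 0.10 as deposited.

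Fuel entry and mitochondrial shape gave further small values. Mpc2, a subunit of the mitochondrial pyruvate carrier, was at 135 to 180.0 RPKM in untrained and 162 to 179 RPKM in trained KO muscle, with overlap (log2 0.16; 0.29 after the correction, adjusted p = 0.0831). Sdhd, a membrane anchor of succinate dehydrogenase, was at 135 to 159 RPKM in untrained and 156 to 177 RPKM in trained KO muscle, with overlap (log2 0.16; 0.23 after the correction). Dnm1l, the dynamin-related protein that divides mitochondria, measured 13.1, 13.4, 11.4 and 11.8 RPKM in untrained and 15.4, 16.1, 16.002 and 14.8 RPKM in trained KO muscle, with all trained values higher (log2 difference 0.32, SE 0.09, adjusted p = 0.176; 0.19 after the correction).

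**Figure D3:**
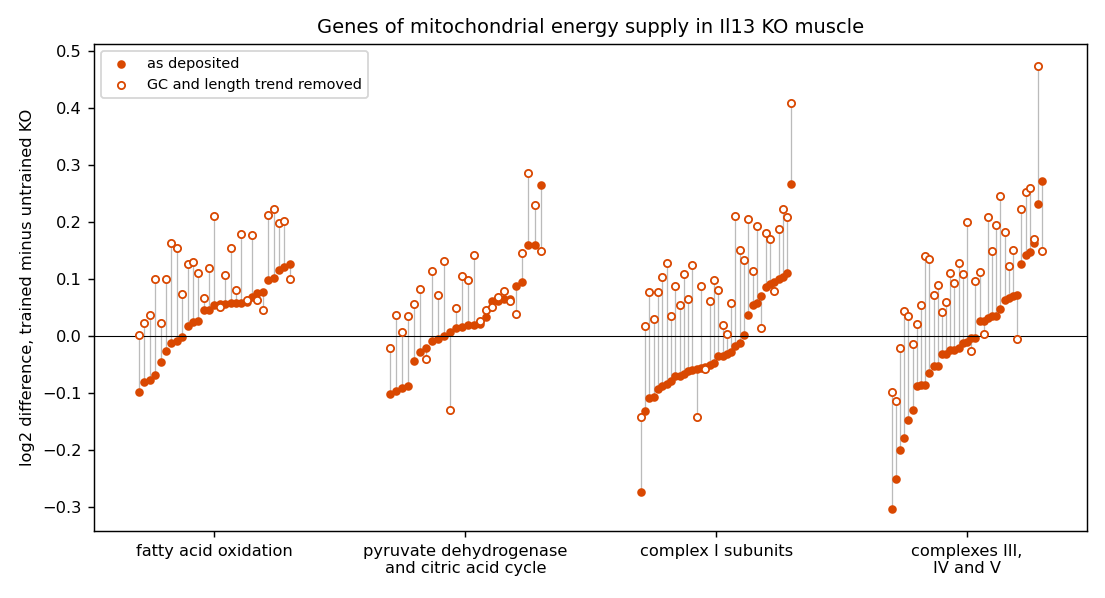
Log2 difference between trained and untrained KO muscle for single genes of 4 mitochondrial lists, as deposited (filled) and after the trend on GC and length was removed from each library (open), joined by a line per gene. Open points lie mostly above 0, in 29 of 29 fatty acid oxidation genes and 31 of 37 genes of complexes III, IV and V; Ndufs5, with 0 reads in 2 untrained libraries, is not drawn.

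Of 24 glycolysis genes 21 lay below 0 and of 20 glycogen genes 13, against 64.9% of all genes. After the correction 11 and 13 lay below 0. Slc2a1, the glucose transporter GLUT1 of endothelium, nerve sheath and resting muscle, measured 2.72, 2.98, 3.63 and 4.28 RPKM in untrained and 2.14, 2.37, 2.17 and 1.91 RPKM in trained KO muscle, without overlap (log2 difference -0.62, SE 0.16, adjusted p = 0.158). Here WT differed by -0.01, and the difference of responses was -0.62, SE 0.22, adjusted p = 0.529.

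The abundant enzymes of the same pathways had narrower ranges. Gpi1, glucose-6-phosphate isomerase, was at 332 to 364 RPKM in untrained and 271 to 319 RPKM in trained KO muscle (log2 -0.21), Gys1, muscle glycogen synthase, at 134 to 146.3 RPKM in untrained and 122 to 127 RPKM in trained KO muscle (log2 -0.18), and Pygm, muscle glycogen phosphorylase, at 2984 to 3113 RPKM in untrained and 2451 to 2907 RPKM in trained KO muscle (log2 -0.18). All 3 lay wholly lower, with adjusted p of 0.257, 0.259 and 0.259, and after the correction their differences were -0.10, -0.07 and -0.06. Ppp1cb, a catalytic subunit of protein phosphatase 1 that acts on glycogen enzymes and myosin, lay wholly higher, at 41.8 to 49.1 RPKM in untrained and 53.9 to 64.8 RPKM in trained KO muscle (log2 difference 0.44, SE 0.11, adjusted p = 0.148). At an unadjusted p under 0.05, the glycolysis list had 0 higher and 3 lower and the glycogen list 1 and 3, against 4.85% higher and 8.9% lower over all genes. After the correction glycolysis had 1 higher and 1 lower and glycogen 1 and 0, against 5.49% and 3.85% over all genes.

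Among 30 heat shock and chaperone genes, which hold or refold unfolded proteins, 23 lay below 0, against 64.9% of all genes. Hspb6, the small heat shock protein also called Hsp20, measured 649.9, 586, 662 and 543 RPKM in untrained and 464, 415, 466 and 440.0 RPKM in trained KO muscle. Trained values lay wholly below untrained ones (log2 difference -0.45, SE 0.12, adjusted p = 0.18), while WT values differed by 0.29. Exons of Hspb6 overlap those of Lin37 and Proser3 on the other strand. Bag3, the co-chaperone that directs damaged filamin to autophagy, measured 71.1, 59.6, 64.1 and 54.7 RPKM in untrained and 48.0, 49.4, 51.4 and 45.1 RPKM in trained KO muscle, without overlap (log2 difference -0.36, SE 0.09, adjusted p = 0.174; -0.22 after the correction; WT 0.15). Hspb7, the cardiovascular small heat shock protein, measured 104, 89.1, 104 and 89.7 RPKM in untrained and 55.6, 76.1, 69.3 and 58.7 RPKM in trained KO muscle, also wholly lower (log2 difference -0.58, SE 0.21, adjusted p = 0.267; WT 0.39). Hspb1, the widely expressed small heat shock protein, was at 93.2 to 203 RPKM in untrained and 79.9 to 103 RPKM in trained KO muscle, with overlap (log2 difference -0.54, SE 0.23, adjusted p = 0.313). Its difference was -0.36 after the correction. The differences of the 2 responses were -0.74, SE 0.17, adjusted p = 0.526 for Hspb6, -0.51, SE 0.13, adjusted p = 0.526 for Bag3 and -0.97, SE 0.29, adjusted p = 0.526 for Hspb7. Hspb6 passed in that comparison under quantile normalization (-0.66, adjusted p = 0.0309) and in no other setting. In the list of 30, 0 were higher and 5 lower at an unadjusted p under 0.05 (4.85% and 8.9% over all genes). Wholly higher was 1 and wholly lower were 5 (4.0% and 5.43% over all genes). After the correction 0 were higher and 4 lower, against 5.49% and 3.85%, with 20 below 0.

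Prkcdbp, also called cavin 3, coats caveolae, the small pits of the plasma membrane that are dense in endothelium, fat and muscle. Prkcdbp (chr7:105480616-105482197, minus strand) measured 15.5, 12.8, 12.3 and 9.56 RPKM in untrained and 8.25, 7.25, 9.23 and 8.17 RPKM in trained KO muscle. The groups were apart, narrowly so between untrained library 4 and trained library 3 (log2 difference -0.59, SE 0.12, adjusted p = 0.139; -0.44 after the correction). WT differed by 0.12, and the difference of responses was -0.71, SE 0.17, adjusted p = 0.526. Ehd2, a caveolar neck ATPase, was at 16.7 to 25.5 RPKM in untrained and 15.3 to 20.01 RPKM in trained KO muscle with overlap (log2 -0.31, adjusted p = 0.266; -0.19 after the correction). The 10 caveolar genes had 0 higher and 3 lower at an unadjusted p under 0.05, against 4.85% and 8.9% over all genes. After the correction the counts were 0 and 2, against 5.49% and 3.85%. Lgals1, galectin 1, a sugar-binding protein of muscle and connective tissue, measured 254, 228, 267 and 227 RPKM in untrained and 191, 199, 202 and 186 RPKM in trained KO muscle, wholly lower (log2 difference -0.32, SE 0.07, adjusted p = 0.139; -0.18 after the correction), and its WT difference was the same size at -0.32. Dlgap4, a scaffold protein best known from synapses, measured 13.0, 12.6, 13.0 and 11.97 RPKM in untrained and 9.41, 9.98, 10.2 and 10.1 RPKM in trained KO muscle, without overlap (log2 difference -0.35, SE 0.07, adjusted p = 0.139; -0.21 after the correction).

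The signalling genes nearest to interleukin-13 were measured as follows. Il4ra, the shared receptor chain, measured 3.63, 2.37, 1.94 and 1.69 RPKM in untrained and 1.82, 2.01, 1.48 and 1.74 RPKM in trained KO muscle, with overlapping groups (log2 difference -0.38, SE 0.19, adjusted p = 0.393). Stat6, the main transcription factor of this receptor, was at 6.51 to 8.28 RPKM in untrained and 6.14 to 6.78 RPKM in trained KO muscle with overlap (log2 -0.18, adjusted p = 0.392; -0.08 after the correction). Stat3, which also takes signals from interleukin-6, measured 15.6, 15.4, 12.2 and 10.6 RPKM in untrained and 10.3, 10.4, 10.8 and 10.5 RPKM in trained KO muscle. The 4 trained values sat close together, at the low end of a wide untrained range and overlapping it through untrained library 4 (log2 difference -0.33, SE 0.10, adjusted p = 0.203; -0.39, SE 0.14, adjusted p = 0.529 for the difference of responses). The gene that overlaps Stat3 on the other strand is Stat5a. Il13ra1 was under the filter, at 0.697 to 1.10 RPKM untrained and 0.654 to 1.22 RPKM trained, and Il13ra2, a receptor without a signalling tail, stood at 0 reads in all 16 libraries. Of 14 genes of this pathway tested, 4 were above 0, against 35.1% of all genes. At an unadjusted p under 0.05, 0 were higher and 1 lower, against 4.85% and 8.9%. After the correction 6 were above 0, again with 0 higher and 1 lower, against 52.9%, 5.49% and 3.85% of all genes.

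Lbp, which presents bacterial lipopolysaccharide to CD14, was at 5.72 to 8.07 RPKM in untrained and 3.78 to 5.61 RPKM in trained KO muscle, without overlap (log2 difference -0.57, SE 0.15, adjusted p = 0.18). Il34, a ligand of the macrophage growth factor receptor Csf1r, was at 2.90 to 3.48 RPKM in untrained and 1.58 to 2.67 RPKM in trained KO muscle, without overlap (log2 -0.47, adjusted p = 0.257). Oasl2, an interferon-stimulated gene, was at 0.953 to 1.41 RPKM in untrained and 0.643 to 0.885 RPKM in trained KO muscle, also apart (log2 -0.54, adjusted p = 0.244). The interferon list of 21 genes had 0 higher and 4 lower at an unadjusted p under 0.05, against 4.85% and 8.9% over all genes. After the correction it had 0 and 1, against 5.49% and 3.85%. None of 10 macrophage and 5 T cell, neutrophil and mast cell markers had an unadjusted p under 0.05.

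Markers of the tissue between the fibres lay mostly below 0 in trained KO muscle. Below 0 were 7 of 7 nerve and Schwann cell markers (median -0.64), 12 of 12 adipocyte markers (-0.54), 12 of 12 tendon markers (-0.30), 13 of 14 smooth muscle and pericyte markers (-0.22), 14 of 14 markers of fibro-adipogenic progenitors (-0.17) and 9 of 10 macrophage markers (-0.24), against 64.9% of all genes. Fast fibre and satellite cell markers did so too, with 17 of 19 and 7 of 7 below 0. After the correction the medians were -0.52 for nerve, -0.37 for adipocyte, -0.21 for tendon and -0.14 for macrophage markers. Those of progenitor and smooth muscle markers were -0.11 and -0.08. The corrected fast fibre median was 0.04, with 16 of 19 above 0, against 52.9% of all genes. None of these markers passed the test. Summed RPKM was 43.8 to 62.7 in trained and 65.0 to 144.9 in untrained KO libraries for nerve markers, which did not overlap, and 1293 to 1386 against 1440 to 1577 for smooth muscle markers, which did not overlap either. Adipocyte markers summed to 717 to 1259 in trained and 880.1 to 1455 in untrained libraries, tendon markers to 125 to 270.1 and 178 to 303, and macrophage markers to 76.6 to 167 and 99.6 to 177, all 3 with overlap. The smooth muscle list includes desmin (Des) and the adipocyte list Car3, which muscle fibres also make. Their sums therefore do not measure vessel wall or fat cells alone. Acta2, by comparison, reached at most 25.3 RPKM in the KO libraries. Among these lists 1 marker had 0 reads in every library, the adipocyte gene Ucp1.

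Matrix genes lay below 0 as well. Of 44 matrix glycoprotein, proteoglycan and crosslinking genes 43 lay below 0 (median -0.23), with 0 higher and 12 lower at an unadjusted p under 0.05, and of 19 collagens 17 lay below 0 (median -0.28), with 0 and 2. Among all genes 64.9% lay below 0, and 8.9% were lower at that p. After the correction the medians were -0.14 and -0.16 and the counts of lower genes 5 and 1, against 3.85% over all genes. The part of cell make-up in these values was not tested. Lox, which crosslinks collagen and elastin, measured 4.05, 2.93, 3.62 and 2.91 RPKM in untrained and 1.90, 2.50, 3.40 and 1.97 RPKM in trained KO muscle, with an overlap through trained library 3 (log2 difference -0.48, SE 0.17, adjusted p = 0.264). Sparc, a collagen-binding glycoprotein, was at 126 to 193 RPKM in untrained and 105 to 160.2 RPKM in trained KO muscle, with overlap (log2 difference -0.41, SE 0.14, adjusted p = 0.258).

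Contractile genes of vessel walls lay lower too. Acta2, smooth muscle actin, measured 25.3, 24.8, 18.9 and 18.1 RPKM in untrained and 17.4, 15.1, 11.0 and 10.9 RPKM in trained KO muscle, without overlap (log2 difference -0.69, SE 0.23, adjusted p = 0.258). Myh11, the smooth muscle myosin heavy chain, was at 8.005 to 10.1 RPKM in untrained and 5.60 to 7.25 RPKM in trained KO muscle, without overlap (log2 -0.41, adjusted p = 0.268). Of the 14 smooth muscle and pericyte markers, 0 were higher and 6 lower at an unadjusted p under 0.05, against 4.85% and 8.9% over all genes. After the correction the counts were 1 and 3, against 5.49% and 3.85%. In myelin, Cnp was at 3.71 to 5.17 RPKM in untrained and 2.68 to 3.33 RPKM in trained KO muscle, without overlap (log2 -0.43, adjusted p = 0.258), and Mbp at 5.32 to 14.4 RPKM in untrained and 3.41 to 5.11 RPKM in trained KO muscle, where untrained library 3 stood far above the rest (log2 -0.74, adjusted p = 0.423).

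Of 14 endothelial markers 12 lay below 0, against 64.9% of all genes. At an unadjusted p under 0.05, 0 were higher and 1 lower, against 4.85% and 8.9% over all genes. After the correction 8 lay below 0, with a median of -0.04 and 0 at an unadjusted p under 0.05. Eng, an endothelial co-receptor for transforming growth factor beta, was at 13.6 to 16.9 RPKM in untrained and 11.2 to 12.4 RPKM in trained KO muscle, without overlap (log2 -0.33, adjusted p = 0.249; -0.19 after the correction).

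As deposited, genes of the slow oxidative fibre list had a median of -0.24 in KO and 0.72 in WT. In KO 13 of 16 lay below 0, against 64.9% of all genes, and they were uneven within the KO groups. Csrp3, the muscle LIM protein of the Z-disc, measured 93.0, 83.4, 84.5 and 60.6 RPKM in untrained and 53.5, 51.5, 59.5 and 55.6 RPKM in trained KO muscle, wholly lower (log2 difference -0.53, SE 0.23, adjusted p = 0.325; WT 0.31). Ankrd2, a stretch-responsive ankyrin repeat protein, measured 97.3, 110.3, 127 and 105 RPKM in untrained and 70.0, 79.97, 87.7 and 79.6 RPKM in trained KO muscle, also wholly lower (log2 difference -0.47, SE 0.19, adjusted p = 0.296; WT 0.24). The sums of the 18 slow fibre genes overlapped, from 1839 to 2792 RPKM in untrained and 1787 to 2809 RPKM in trained KO libraries. Leaving out 1 KO library at a time moved the median from -0.47 without KO trained 3 to 0.06 without KO untrained 3. With the trend removed the KO median of the slow oxidative fibre list was -0.13, with 4 of 16 above 0 against 52.9% of all genes. This median ran from -0.37 without KO trained 3 to 0.11 without KO untrained 3, so its direction in KO rested on single libraries. The difference between the genotypes' medians was not tested.

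**Figure D4:**
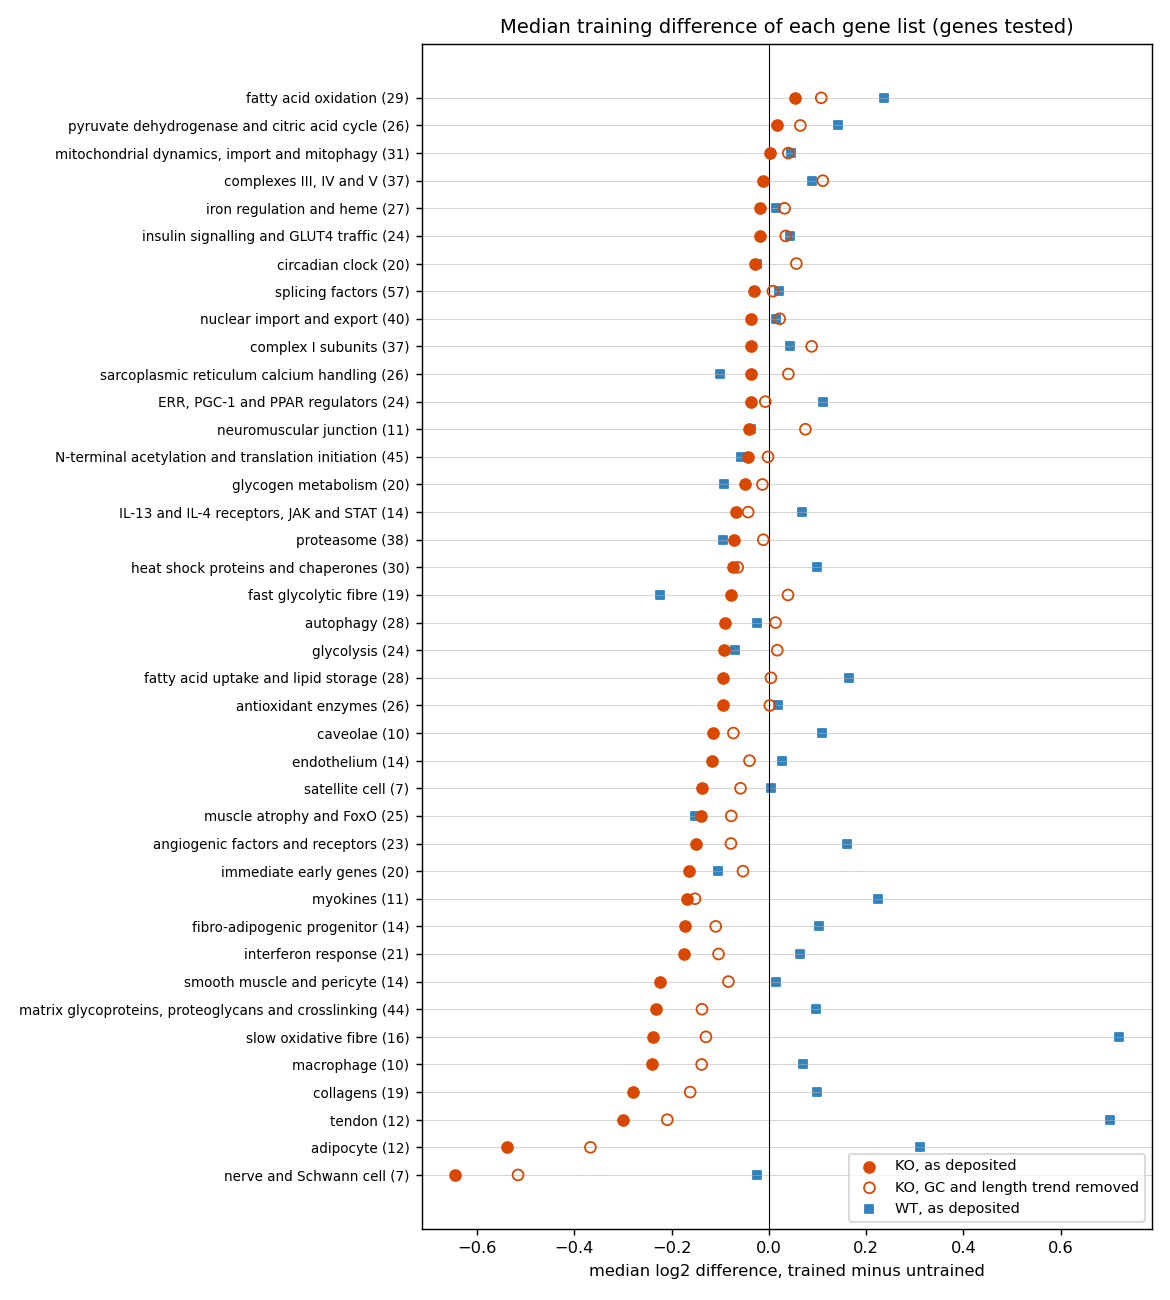
Median log2 difference with training of each gene list with at least 7 genes tested (number in brackets), in KO as deposited (filled circles), in KO after the trend on GC and length was removed (open circles) and in WT as deposited (squares). Nerve and adipocyte markers have the lowest KO medians, at -0.64 and -0.54, and slow fibre and tendon markers lie on opposite sides of 0 in the 2 genotypes.

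Whether a training difference was particular to the knockout was tested as the KO response minus the WT response. In limma 0 of 10171 genes (0.0%) passed, with 854 (8.4%) at an unadjusted p under 0.05, of which 239 (2.35%) responded higher and 615 (6.05%) lower in KO, and voom called 0, with 998 at an unadjusted p under 0.05. The smallest adjusted p was 0.526. Klf5 had a difference of -1.22, SE 0.26, adjusted p = 0.526, with 0.784, 0.996, 1.07 and 1.38 RPKM in untrained and 1.67, 1.32, 1.42 and 1.63 RPKM in trained WT muscle beside the KO values above. The trained mean for Klf5 was higher in WT, with overlapping groups, and lower in KO. Twistnb, a subunit of RNA polymerase I, measured 3.16, 3.36, 3.65 and 3.62 RPKM in untrained and 4.49, 4.94, 4.50 and 4.36 RPKM in trained KO muscle (log2 0.40; 0.17 after the correction), against -0.19 in WT, and its difference was 0.59, SE 0.13, adjusted p = 0.526. Rab18, a small GTPase of lipid droplets and the endoplasmic reticulum, was at 21.05 to 23.0 RPKM in untrained and 25.2 to 29.5 RPKM in trained KO muscle (log2 0.28; difference of responses 0.32, SE 0.08, adjusted p = 0.526). For Csrp3 and Ankrd2 the differences of responses were -0.84, SE 0.32, adjusted p = 0.55 and -0.70, SE 0.26, adjusted p = 0.541. Fhl1, a slow fibre list gene, differed by -0.12 in KO and 0.67 in WT. Its difference of responses was -0.79, SE 0.16, adjusted p = 0.526. At an unadjusted p under 0.05, 0 of 16 slow fibre genes responded higher and 14 lower in KO. The counts were 0 and 9 of 12 tendon markers and 0 and 12 of 29 fatty acid oxidation genes. Fast fibre markers had 5 higher and 1 lower of 19. Over all genes 2.35% were higher and 6.05% lower. Lists were not tested as sets, and no gene was shown to respond to training differently in KO and WT muscle in this fit.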

How the data were processed

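Gastrocnemius messenger RNA was sequenced from 16 mice with a stranded library kit, per the labels' protocols. The authors deposited 1 table of RPKM per gene and library; per the submitters' processing notes the genome was mm10. No aligner, counter or strand setting is given in the sources used here. All 16 value columns matched sample titles. Whole reads were recovered from the steps of low RPKM values in each library (100.0% of values whole within 0.01 read).

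Genes that reached 1 RPKM in 4 or more libraries were fitted as log2(RPKM + 0.1) with limma 3.58.1 (trend and robust, R 4.3.3), with 1 mean for each of 4 groups, and p-values were adjusted by Benjamini-Hochberg over all 10171 genes, with a threshold of 0.05. A fold on this scale understates the change of low genes. Alternatives included limma's voom on the recovered reads and a trend on length and GC (splines, 5 df) removed per library. GC came from GENCODE M21. Values of 1 number per library were compared by exact two-sided permutation tests. The comparison, the gene lists and the rule for named genes were chosen with earlier results of these data known. The rule took the genes with the smallest p and no overlap (up to 12 per direction), the largest differences (up to 10 more), up to 5 per list, and up to 8 per direction for the difference of responses, and the text names some of them. The code was checked on simulated data.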

Additional observations from a re-analysis of the deposited data

Results flagged for a closer look

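Among the groups of 4 libraries checked for the genes named, 4 groups held a library whose gap to the nearest of the others, divided by the range of the group, exceeded Dixon's critical value for 4 values, which chance exceeds in about 1 in 20 groups. Ireb2 had 4.26 RPKM in KO untrained 4, against 3.80 to 3.87 RPKM in the other untrained KO libraries. Myh11 had 5.601 RPKM in KO trained 4, against 7.17 to 7.25 RPKM in the other trained KO libraries. Ndufb6 had 120.8 RPKM in KO trained 2, against 132 to 133 RPKM. Oasl2 had 1.41 RPKM in KO untrained 3, against 0.953 to 1.01 RPKM.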

How the results depend on the processing

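Training in KO muscle gave 0 genes in the fit of all libraries, 1 with no filter on low values (a gene model with no name), 1 with a replicate block, 97 with weights per library and, leaving out 1 library at a time, between 0 and 106. The 106 came without WT trained 1 and the single gene without KO trained 3 was Penk, named after its values were seen (-0.63, adjusted p = 0.0385). The difference of responses gave 0 genes, 1 with no filter, 1 with quantile normalization, 13 with the replicate block, 11 with the block and the correction for length and GC together, 4 without both KO libraries numbered 3 and 0 to 2 leaving out 1 library at a time. The 2 without KO trained 3 were Prg4 and Myh2. The cause of these moves was not tested. Replicate numbers were not taken as pairs, since no label ties them and not every r exceeded 0.1: same-numbered untrained and trained libraries deviated from their group means with r of 0.149, 0.191, 0.442 and 0.052 in KO, all positive, and -0.113, -0.050, 0.044 and 0.109 in WT, and not every library correlated best with its own number. After the length and GC correction, 2 genes passed without KO trained 4 (Sdhd and Atp6v1d) and 1 without KO untrained 4 (Wls). Of 1580 values of 53 named genes under alternatives, 1535 kept direction and side of the threshold, 45 newly passed and 0 turned. Of 1259 values of 42 gene lists, 35 moved by more than 1 SD between replicates, in 11 lists. The difference between the lowest and highest GC groups kept its direction at a filter of 5 RPKM, with pseudocounts of 0.01 and 1 and without each KO library; the length and GC correction removes it by construction. With 4 mice a group, the median SE of a gene was 0.103 on the log2 scale, which limits what could pass.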

Other observations

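Blood genes were the marker list with most members above 0 in trained KO muscle, 5 of 6, against 35.1% of all genes. Their median was 0.25, and 0 passed at an unadjusted p under 0.05. Their summed level ran from 325 to 442 RPKM untrained and from 263 to 725 RPKM trained, with overlap. The proteasome list had 30 of 38 genes below 0, with 1 higher and 7 lower at an unadjusted p under 0.05, against 64.9% of all genes below 0 and 8.9% lower. After the length and GC correction 21 lay below 0, with 0 higher and 5 lower, against 5.49% and 3.85% over all genes. Mitochondrial ribosomal proteins, a family chosen after values were seen, had 64 of 76 below 0, with 1 higher and 6 lower at that p. After the correction 46 of them lay above 0, with 6 higher and 2 lower. Immediate early genes had 19 of 20 below 0 (median -0.16), with 0 higher and 1 lower, and after the correction 13 lay below 0 (median -0.05). The shares over all genes were 64.9% below 0, 4.85% higher and 8.9% lower. After the correction they were 52.9% above 0, 5.49% higher and 3.85% lower. Across all genes, which are not independent replicates, Spearman's rho between the training difference in KO and that in WT was 0.181, and 0.0505 once the length and GC trend was removed from each library.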
